A study of Mus with 21 samples.

Results

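The HMGA, IGF2 mRNA-binding protein and insulin-like growth factor genes were followed in mouse skin wounds. These are 7 of the 18806 genes in the count table, namely Hmga1, Hmga2, Igf2bp1, Igf2bp2, Igf2bp3, Igf1 and Igf2. They were taken by symbol, as related growth genes of fetal tissue and tumors, and were chosen by a measured value, since the list was drawn up because Hmga2 was higher in wounds with a hydrogel than in wounds without one. The comparison of hydrogels with control is therefore a description here and carries no test for any of the 7 genes. The 7 genes were tested only between groups of the 18 hydrogel libraries, since that choice did not use the differences among them. All 7 genes passed the filter on low counts.

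The wounds were full-thickness punch wounds of 8 mm in diameter on the back of 8-week-old female C57BL/6 mice of wild-type genotype (WT), held open by a splint, and RNA was taken on day 4. There were 7 groups of 3 libraries. The control wounds received no hydrogel, and the other 6 groups received a scaffold of GelMA, a light-cured gelatin hydrogel, prepared at pH 6.4, 7.4 or 8.4 and loaded with acidic or basic fibroblast growth factor (aFGF or bFGF). A group such as 6.4/aFGF is written as its pH followed by its growth factor. No group had a hydrogel without growth factor, so scaffold and growth factor cannot be told apart in a comparison with control. The labels give each library as a biological replicate. The paper describes 7 groups of 3 mice, with a wound on both sides of the back and sacrifice on day 4 and later days. Whether every library came from a separate mouse is not stated in the sources used here. Libraries held 34362558 to 37817833 counts (median 36771838). The marker genes of keratinocytes, fibroblasts, macrophages and endothelial cells were detected in all groups, as fits skin. The library 7.4/aFGF 3 stood apart by Col2a1, a cartilage collagen (200.1 CPM against at most 0.944 in any other library), 8.4/aFGF 2 by Alb, the albumin gene of liver (138.4 against at most 13.8), and 8.4/bFGF 2 by Hsd3b1, a steroid-forming enzyme (397.5 against at most 0.237). Control replicate 2 differed from the other controls in its adipocyte and neutrophil genes, as given with Igf1.

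HMGA proteins bind the minor groove of AT-rich DNA through AT-hook motifs and change the way chromatin bends and opens. Hmga2 is abundant in the embryo, is low in most adult tissues, and its mRNA is a classical target of the let-7 microRNAs, whose maturation LIN28 proteins block. The IGF2 mRNA-binding proteins bind and stabilize transcripts, Igf2 among them. The growth factors encoded by Igf1 and Igf2 signal through the receptor Igf1r, while Igf2r removes IGF2 and the IGF-binding proteins hold both ligands outside the cell.

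The level per length differed widely among the 7 genes. On the FPKM scale, which divides reads by gene length and library size, Hmga1 was highest with a mean of 38.6 over the 21 libraries (26.5 to 64.5). Igf1 followed with 11.6 FPKM (6.28 to 23.9), then Igf2bp2 with 5.35 (3.13 to 7.12), Igf2 with 4.75 (1.49 to 9.05) and Hmga2 with 2.07 (0.368 to 4.29). Igf2bp3 at 0.270 FPKM (0.102 to 0.534) and Igf2bp1 at 0.0727 FPKM (0.0327 to 0.133) were the lowest. Their counts were few, at 22 to 114 per library for Igf2bp3 and 10 to 42 for Igf2bp1. Over the 18 hydrogel libraries the coefficient of variation of the FPKM was 51.7% for Igf2 and 41.7% for Hmga2, but 21.8% for Hmga1 and 17.5% for Igf2bp2. All values that follow are CPM, counts scaled to a common library size by TMM, unless a log2 difference is named.

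Hmga2 was at 2.48, 2.65 and 1.32 CPM in the 3 control libraries. With aFGF it was at 9.49, 10.2 and 4.30 CPM at pH 6.4, at 5.66, 5.43 and 4.26 at pH 7.4, and at 6.17, 5.79 and 5.16 at pH 8.4. With bFGF it was at 10.4, 8.17 and 8.94 CPM at pH 6.4, at 12.2, 13.3 and 15.0 at pH 7.4, and at 16.0, 9.28 and 8.97 at pH 8.4. All 18 hydrogel libraries lay above the highest control, as the choice of the gene implies, and among them the libraries of 7.4/bFGF were high and those of 7.4/aFGF and 8.4/aFGF were low. The control mean was 2.15 ± 0.722 CPM (SD, n = 3) and the mean of the hydrogels was 8.82 ± 3.59 CPM (SD, n = 18), a log2 difference of 1.95 with a standard error of 0.277. On the log2(FPKM + 1) scale, which compresses the change of a low gene, the difference was 1.03. The mean of each group divided by the control mean was 2.38 in 7.4/aFGF, 2.65 in 8.4/aFGF, 3.72 in 6.4/aFGF, 4.27 in 6.4/bFGF, 5.30 in 8.4/bFGF and 6.29 in 7.4/bFGF. In this order only 7.4/aFGF and control, as neighbours, did not overlap. Of the 15811 genes tested for this contrast, 56 (0.354%) were higher in all 18 hydrogel libraries than in all controls, and 0.00632% were called. The 1 gene called was Hmga2 itself, which was chosen on this contrast, so nothing is read from these shares for it. In bulk wound RNA, fewer cells of a type and less RNA per cell cannot be told apart.

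**Figure D1:**
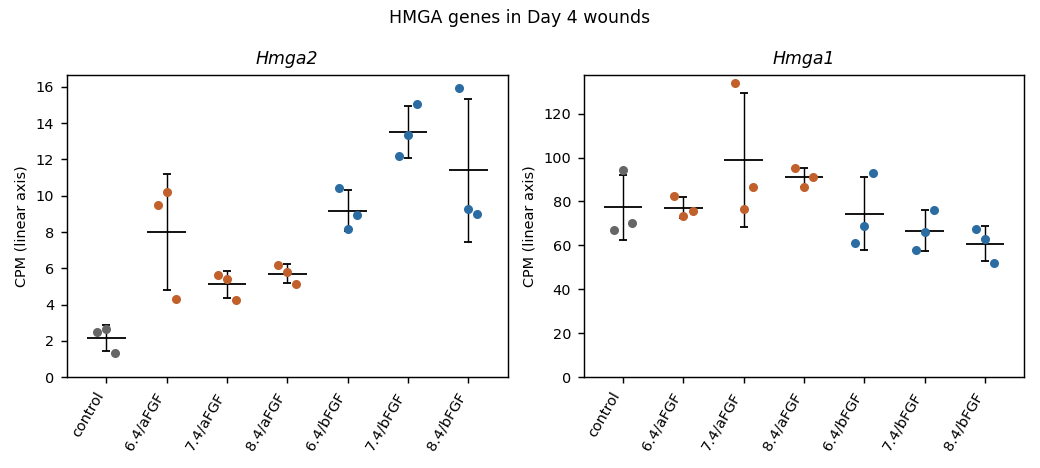
CPM of Hmga2 (left) and Hmga1 (right) on linear axes from 0 for each of the 7 groups. Points are libraries, horizontal lines are means and vertical bars are SDs (n = 3), with control in gray, aFGF in orange and bFGF in blue. Hmga2 lay between 1.32 and 2.65 CPM in control wounds and at 4.26 CPM or more in every hydrogel wound, with the highest group mean in 7.4/bFGF.

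The growth factors were compared over the 3 pH values among the 18 hydrogel libraries. A gene was called when the adjusted p from edgeR's quasi-likelihood test was under 0.05 and the log2 fold change was beyond 0.58 in either direction, and 592 of 15696 genes (3.77%) were called, 1.8% of all genes higher and 1.98% lower with aFGF. Hmga2 was the 1 of the 7 genes that was called. It was lower with aFGF (6.27 ± 2.13 CPM, SD, n = 9) than with bFGF (11.4 ± 2.88 CPM, SD, n = 9), a log2 difference of -0.85 with a standard error of 0.164 and a 95% interval of -1.20 to -0.50 (edgeR adjusted p = 0.00797), or 1.81-fold. All 9 bFGF libraries exceeded the median of the aFGF libraries, and 5 of 9 exceeded the highest of them. A two-sided exact permutation of the labels within each pH gave p = 0.002, where 0.00025 was the smallest value possible. The difference also passed when the 3 libraries that stood apart were left out (-0.86, edgeR adjusted p = 0.0266), and the adjusted p was 3.52e-05 to 0.0266 over the alternatives that adjust it.

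The difference between the growth factors was not of the same size at each pH. At pH 6.4 the means of Hmga2 were 7.99 CPM with aFGF and 9.17 CPM with bFGF, and the libraries overlapped. At pH 7.4 they were 5.12 and 13.5 CPM, 2.64-fold apart, and at pH 8.4 they were 5.71 and 11.4 CPM, 2.00-fold apart, with no overlap of libraries at either pH. Groups that did not overlap in the same direction were found for 10.7% of all genes tested at pH 7.4 and for 13.5% at pH 8.4. The interaction of growth factor with pH 6.4 against 7.4 was 1.17 on the log2 scale for Hmga2 (95% interval 0.32 to 2.03), with an unadjusted p of 0.0106 and an edgeR adjusted p of 0.719, so the unequal sizes did not pass the correction over all genes. Within bFGF, the 3 libraries at pH 6.4 (8.17 to 10.4 CPM) lay below the 3 at pH 7.4 (12.2 to 15.0 CPM), as did 7.33% of genes.

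Hmga1, the second gene of the family, is widely expressed in dividing cells. It was at 67.2, 94.4 and 70.3 CPM in the controls. With aFGF it was at 82.4, 73.5 and 75.7 CPM at pH 6.4, at 133.7, 76.4 and 86.5 at pH 7.4, and at 95.3, 86.5 and 91.1 at pH 8.4. With bFGF it was at 61.2, 69.0 and 93.0 CPM at pH 6.4, at 57.8, 66.0 and 76.3 at pH 7.4, and at 67.3, 63.1 and 52.1 at pH 8.4. The controls lay inside the range of the hydrogels, and the library 7.4/aFGF 1 was the highest. The log2 difference of hydrogels from control was -0.01 (standard error 0.156).

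Between the growth factors Hmga1 went the other way from Hmga2. It was at 89.0 ± 18.3 CPM with aFGF and 67.3 ± 11.9 CPM with bFGF (SD, n = 9 each), a log2 difference of 0.41 (95% interval 0.17 to 0.66, edgeR adjusted p = 0.0312). This passed the adjusted p alone, as 13% of all genes did, and stayed under the fold threshold, so Hmga1 was not called. Of 26 alternatives, 17 gave an adjusted p under 0.05 (0.00825 to 0.0682 over all) and 0 gave a call. Without the 3 libraries that stood apart, the adjusted p was 0.0549. The groups overlapped at pH 6.4 (means of 77.2 and 74.4 CPM) and did not at pH 7.4 (98.9 and 66.7 CPM) or pH 8.4 (91.0 and 60.8 CPM), where 9.61% and 13.3% of all genes were higher with aFGF without overlap. Hmga1b, a near-identical copy with its own entry in the table, was at 5.94 to 16.2 CPM, and reads of the pair may have been divided between them. Summing both gave 0.40 (edgeR adjusted p = 0.0377).

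**Figure D2:**
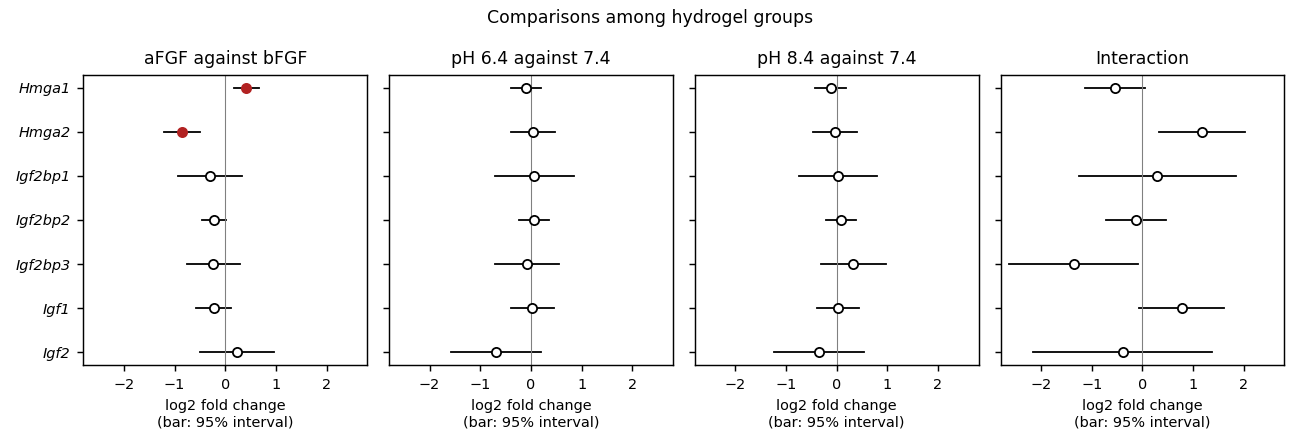
Log2 fold changes of the 7 genes among hydrogel libraries, with 95% intervals as bars, for aFGF against bFGF, pH 6.4 against 7.4, pH 8.4 against 7.4, and the interaction, which is the pH 6.4 against 7.4 difference with aFGF minus that with bFGF. Filled red points have an edgeR adjusted p under 0.05, which only Hmga1 (0.41) and Hmga2 (-0.85) had, both between the growth factors.

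Some values moved with the growth factor beside those of the HMGA genes. Of the liver markers, 5 of 7 tested (Ahsg, Alb, Apoa1, Apoa2 and Ttr) were called higher with aFGF, with Alb at 1.65 to 138.4 CPM (median 5.05) against 0.806 to 3.49 CPM (median 1.36) with bFGF. In each of the 5, 1 aFGF library stood far above the next, such as Alb at 138.4 against 13.8 CPM, Ttr at 23.0 against 1.78 and Ahsg at 19.2 against 1.84. Apart from Alb, their aFGF medians were low, from 0.222 (Ttr) to 1.52 CPM (Apoa2). Cyp2e1, the most abundant gene of that list, had a log2 difference of -0.63 (edgeR adjusted p = 0.587), and the list summed to 10.1 to 255.4 CPM with aFGF and 8.71 to 345.0 CPM with bFGF. The 8 fibroblast markers summed to 33551 to 53264 CPM with aFGF and 40299 to 74301 CPM with bFGF, and 0 of them were called. The liver list was the only one of the 13 marker lists with a called gene in this comparison. The part of either in the difference of Hmga2 was not tested. Over the 18 hydrogel libraries, Pearson's r of Hmga2 was 0.33 with the fibroblast sum (Spearman's rho 0.42) and 0.08 with the sum of proliferation genes (rho 0.06), with adjusted p of 0.495 and 0.838 for r by permutation over 91 relations of the 7 genes with 13 marker lists. Within the growth factors, r of Hmga2 with the fibroblast sum was 0.80 with aFGF and -0.52 with bFGF (n = 9 each), so the pooled value mixed opposite signs. With the adipocyte sum r was 0.29 (adjusted p = 0.527 by permutation), 0.89 with aFGF and 0.69 with bFGF, and 0.71 on the deviations from group means. With the liver sum r was 0.31 (rho 0.47, adjusted p = 0.504 for r by permutation), 0.54 with aFGF, 0.76 with bFGF and 0.60 on the deviations. Other lists were also far from 0 within aFGF, such as endothelial (0.82, and -0.30 with bFGF) and skeletal muscle (-0.80, and 0.16 with bFGF). These within-group values carry no test, and no list was related to Hmga2 at an adjusted p under 0.05.

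The IGF2 mRNA-binding protein genes differed from each other mainly in level. Igf2bp2, which in adult tissue is the member of the family most widely kept on, was at 21.8, 26.7 and 14.2 CPM in control. With aFGF it was at 20.5, 22.1 and 12.5 CPM at pH 6.4, at 20.1, 16.6 and 18.3 at pH 7.4, and at 23.1, 20.6 and 18.9 at pH 8.4. With bFGF it was at 21.5, 22.9 and 27.3 CPM at pH 6.4, at 21.4, 23.1 and 22.3 at pH 7.4, and at 16.3, 25.04 and 23.2 at pH 8.4. The lowest library was 6.4/aFGF 3, and the means of control (20.9 ± 6.29 CPM, SD, n = 3) and hydrogels (20.9 ± 3.47 CPM, SD, n = 18) were alike.

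Igf2bp2 was at 19.2 ± 3.18 CPM with aFGF and 22.6 ± 2.99 CPM with bFGF (SD, n = 9 each). The log2 difference was -0.22 (95% interval -0.46 to 0.02, edgeR adjusted p = 0.202). The exact permutation within pH gave an unadjusted p of 0.0498. At pH 7.4 the aFGF libraries (16.6 to 20.1 CPM) lay below those of bFGF (21.4 to 23.1 CPM), with Igf1 and Hmga2 the other 2 of the 7 genes to do so, against 10.7% of all genes.

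Igf2bp1 and Igf2bp3, the members of the family that are mostly fetal, were scarce. Igf2bp1 was at 0.264 to 1.06 CPM in control and 0.281 to 1.17 CPM in the hydrogels, so the groups covered the same range. Igf2bp3 was at 1.13, 1.15 and 0.971 CPM in control. It was at 0.576 to 3.17 CPM in the hydrogels, where 14 of 18 libraries exceeded the highest control and 2 lay below the lowest. Its log2 difference from control was 0.53 with a standard error of 0.322, and all 7 groups overlapped with their neighbours in the order of means. The growth factors differed by -0.31 for Igf2bp1 (95% interval -0.94 to 0.33, edgeR adjusted p = 0.528) and by -0.24 for Igf2bp3 (-0.76 to 0.28, adjusted p = 0.552).

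Igf2bp3 was the 1 gene of the family with a pair of pH groups that did not overlap. With bFGF its libraries were at 0.963 to 1.63 CPM at pH 7.4 and at 1.94 to 2.11 CPM at pH 8.4, a separation found for 5.22% of genes in that direction. The interaction of growth factor with pH 6.4 against 7.4 was -1.36 on the log2 scale (95% interval -2.64 to -0.08), with an unadjusted p of 0.0390 and an edgeR adjusted p of 0.746. The library 6.4/bFGF 2 (3.17 CPM) was the highest, and the other libraries of that group were at 1.30 and 1.35 CPM.

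**Figure D3:**
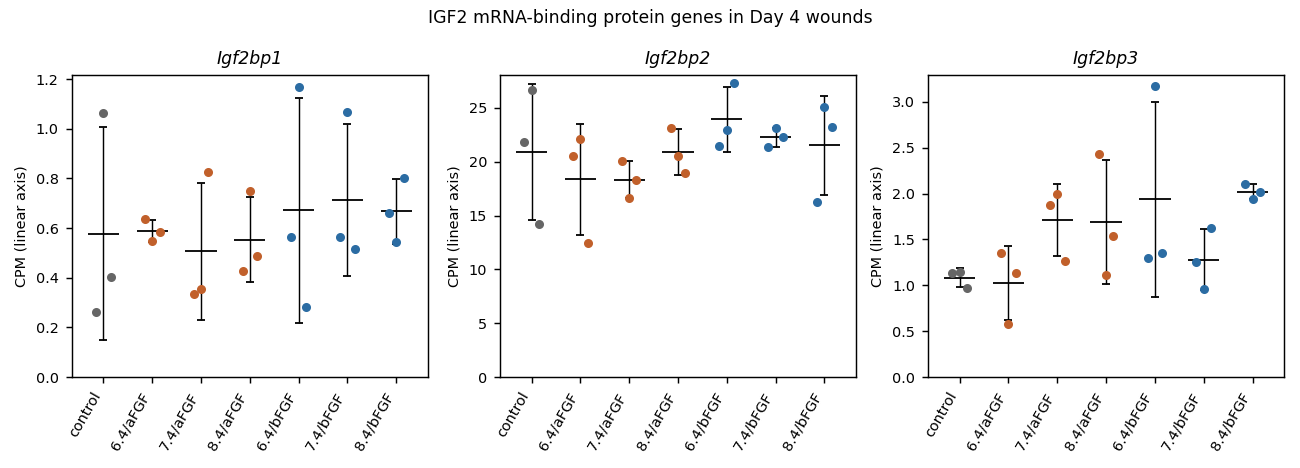
CPM of Igf2bp1, Igf2bp2 and Igf2bp3 on linear axes from 0 for each of the 7 groups, with points for libraries, lines for means and bars for SDs (n = 3). The axes differ: Igf2bp2 reached 27.3 CPM, Igf2bp3 3.17 CPM and Igf2bp1 1.17 CPM, and in each gene the hydrogel libraries overlapped with the controls.

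Igf1, made in skin mainly by fibroblasts and macrophages, was at 197.3, 57.5 and 184.1 CPM in control. With aFGF it was at 84.6, 111.5 and 97.0 CPM at pH 6.4, at 65.9, 91.1 and 61.0 at pH 7.4, and at 85.5, 95.5 and 56.9 at pH 8.4. With bFGF it was at 121.1, 71.0 and 60.1 CPM at pH 6.4, at 92.0, 92.9 and 141.2 at pH 7.4, and at 106.2, 80.5 and 118.0 at pH 8.4. Of the 3 controls, 2 exceeded all hydrogel libraries and the third lay at their lower end. The means were 146.3 ± 77.2 CPM in control (SD, n = 3) and 90.7 ± 23.1 CPM in the hydrogels (SD, n = 18), and the log2 difference of -0.72 became -1.10 without control replicate 2 and -0.44 without control replicate 1. The 6 adipocyte markers summed to 6998, 553 and 4068 CPM in the same controls and the 6 neutrophil markers to 1168, 7892 and 695 CPM, and their part in the spread of Igf1 was not tested.

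Among the hydrogels, Igf1 was at 83.2 ± 18.4 CPM with aFGF and 98.1 ± 25.98 CPM with bFGF (SD, n = 9 each). The log2 difference was -0.23 (95% interval -0.57 to 0.11, edgeR adjusted p = 0.358). At pH 7.4 its aFGF libraries (61.0 to 91.1 CPM) lay just below those of bFGF (92.0 to 141.2 CPM), while at pH 6.4 and 8.4 they overlapped. The interaction with pH 6.4 against 7.4 was 0.77 (95% interval -0.06 to 1.61, edgeR adjusted p = 0.749).

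Igf2, the fetal growth factor that is expressed from the paternal allele, was at 30.2, 30.5 and 42.6 CPM in control. With aFGF it was at 12.0, 9.92 and 33.1 CPM at pH 6.4, at 26.8, 33.1 and 41.9 at pH 7.4, and at 14.2, 32.7 and 10.3 at pH 8.4. With bFGF it was at 16.6, 11.0 and 17.7 CPM at pH 6.4, at 28.01, 28.8 and 7.78 at pH 7.4, and at 40.03, 11.6 and 17.7 at pH 8.4. High and low libraries occurred within most hydrogel groups, and 13 of 18 lay below the lowest control. The log2 difference of hydrogels from control was -0.72 (standard error 0.397), with means of 34.5 ± 7.07 CPM (SD, n = 3) and 21.8 ± 11.2 CPM (SD, n = 18).

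No difference of Igf2 among the hydrogels passed the test. The log2 difference between the growth factors was 0.23 (95% interval -0.49 to 0.96, edgeR adjusted p = 0.688), and it was -0.14 without the 3 libraries that stood apart. At pH 6.4 the mean was 16.7 ± 8.62 CPM and at pH 7.4 it was 27.7 ± 11.2 CPM (SD, n = 6 each), a log2 difference of -0.69 (95% interval -1.59 to 0.20, edgeR adjusted p = 0.567).

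The level of Igf2 moved with muscle genes. Of the 91 relations of members with marker lists, 3 passed an adjusted p of 0.05 for r by permutation, and all were those of Igf2, positive with the muscle precursor list (adjusted p = 0.00091) and the skeletal muscle list (0.00227) and negative with the neutrophil list (0.0431, and 0.0812 for rho). By rho, Igf2bp2 with the muscle precursor list passed as well (rho = -0.73, adjusted p = 0.0309 by permutation). Its r was -0.65 (adjusted p = 0.0550 by permutation), -0.67 with aFGF, -0.46 with bFGF and -0.62 on the deviations from group means. A list of 6 genes of muscle precursors and embryonic muscle (Pax7, Myf5, Myod1, Myog, Myh3 and Myh8) summed to 59.3, 68.4 and 107.4 CPM in control. In 10 hydrogel libraries the sum was 4.83 to 22.1 CPM and Igf2 was at 7.78 to 17.7 CPM, and in the other 8 the sum was 29.6 to 84.3 CPM and Igf2 was at 26.8 to 41.9 CPM. The border between these ranges was set after the values were seen. Since the libraries fell into separate ranges of Igf2, no pooled r of Igf2 with a marker list is given, although the adjusted p above belong to it. Within the ranges r was 0.65 (n = 10, 0.31 without the 2 libraries farthest from the median) and 0.30 (n = 8, -0.11 without the 2 farthest). The split follows the gap in Igf2, and narrow ranges lower r, so these values do not measure how close the relation is. Across both ranges r was 0.95 on the deviations from group means, 0.95 with aFGF and 0.93 with bFGF, and these 3 values carry no test. The lower range held 4 aFGF and 6 bFGF libraries, of which 5 were at pH 6.4, 1 at pH 7.4 and 4 at pH 8.4. The part of the muscle content in the values of Igf2 was not tested.

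**Figure D4:**
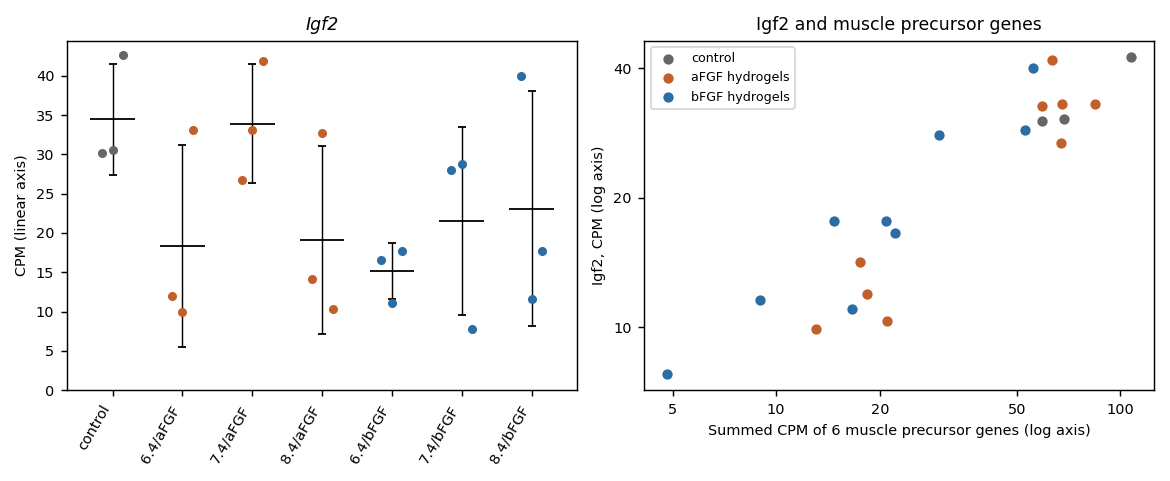
Left, CPM of Igf2 by group on a linear axis, with points for libraries, lines for means and bars for SDs (n = 3). Right, Igf2 against the summed CPM of 6 muscle precursor genes in the 21 libraries, both on log axes. The 10 hydrogel libraries with a sum of at most 22.1 CPM had Igf2 at no more than 17.7 CPM, and the other 8 had at least 26.8 CPM.

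The pH of the hydrogel was compared over both growth factors. In edgeR's test 0 of the 7 genes passed at pH 6.4 against 7.4, at pH 8.4 against 7.4 or in the interaction, and 0 of 15696 genes did (0%). At an unadjusted p under 0.05 there were 1718 genes (10.9%) for pH 6.4, 829 (5.28%) for pH 8.4 and 1029 (6.56%) for the interaction, with Hmga2 and Igf2bp3 among the last. DESeq2 called 14, 9 and 4 genes in these comparisons, and none of the 7. For Hmga2 the log2 difference was 0.04 at pH 6.4 against 7.4 (95% interval -0.39 to 0.47, edgeR adjusted p = 0.960) and -0.04 at pH 8.4 against 7.4 (-0.46 to 0.39, adjusted p = 0.999). At pH 8.4 against 7.4 the largest of the 7 in size were -0.35 for Igf2 and 0.33 for Igf2bp3, both with an adjusted p of 0.995. The intervals of Hmga2 reach at most 0.47 in size, and those of Igf2, Igf2bp1 and Igf2bp3 were wider. For Hmga2 the pooled 0.04 averages opposite directions. With aFGF its means were 7.99 CPM at pH 6.4 and 5.12 CPM at pH 7.4, and with bFGF they were 9.17 and 13.5 CPM. The pooled intervals therefore do not bound a pH difference within 1 growth factor.

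The 7 genes did not move as one set. Their median log2 difference between aFGF and bFGF was -0.23, beside -0.0012 over all genes tested, with Hmga1 and Igf2 above 0 and the other 5 below. Over the hydrogel libraries, 0 of their 21 pairs were correlated at an adjusted p under 0.05 in a permutation test, and 5 were at an unadjusted p under 0.05. Among these was Hmga1 with Hmga2 (r = -0.53, rho = -0.58, adjusted p = 0.115 and 0.106 by permutation, n = 18). For this pair r was 0.24 on the deviations from group means and -0.18 and 0.04 within the aFGF and the bFGF libraries, so it was weaker or of the other sign there. Igf2bp2 with Igf2 (r = -0.54, adjusted p = 0.115 by permutation) was at -0.57 on the deviations, -0.54 with aFGF and -0.53 with bFGF. Hmga1 with Igf1, Hmga1 with Igf2bp1 and Hmga2 with Igf1 were at -0.57, -0.52 and 0.56. On the deviations they were at -0.37, -0.45 and 0.31. The share over all gene pairs is not given here.

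The genes whose log2 CPM was most like that of Hmga2 over the 18 hydrogel libraries, of 13891 with a mean of at least 1 CPM, were Supt3 (r = 0.90), Pskh1 (0.89), AU040320 (0.88), Gm2115 (0.88) and Fbxl4 (0.86), followed by Mpv17, Tmem260, Zfp945, Cul9 and Trim68 (0.84 to 0.85). With the controls included, r fell to between 0.18 and 0.57 for these 10 genes, whose log2 differences of hydrogels from control were -0.32 to 0.08. On the deviations from group means their r with Hmga2 was 0.33 (Cul9) to 0.85 (Zfp945). All 10 were lower with aFGF than with bFGF, as Hmga2 was, with log2 differences of -1.02 (Gm2115) to -0.22 (AU040320). The genes most like Igf2 were the muscle genes Casq2 (r = 0.94), a calcium-binding protein of the sarcoplasmic reticulum, Tnni1 (0.92), a slow troponin, Actc1 (0.91), an actin of heart and developing muscle, Myom3 (0.90) and Hspb3 (0.90). Those most like Igf1 were C1qtnf1 (0.86), Ccdc90b (0.85), Atraid (0.85), Bcas3 (0.83) and Fbln5 (0.83), the last an elastic fiber protein. These are the highest values of a search and carry no test. Those of Igf2 span both of its separate ranges of libraries, which can raise r.

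Around these genes, lists of IGF receptors and adaptors, IGF binding and release, the let-7 axis, imprinted growth genes, other oncofetal genes, IGF2BP client mRNAs and genes linked to Hmga2 held 64 genes without the 7 themselves, of which 58 were tested. Igfbp1, Lin28b, Trim71 and Sall4 had at most 25 counts in any library and were not tested, and H19 and Meg3 were not analysed here. Between the growth factors 6 of 58 were called, beside 3.77% of all genes, with 3 higher and 3 lower with aFGF. The median of the 58 was -0.05, beside -0.0012 over all genes.

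The genes higher with aFGF act on IGF release and on cell adhesion. Pappa and Pappa2, proteases that cut IGF-binding proteins and set the ligand free, were at 4.55 against 2.41 CPM (log2 difference 0.97, edgeR adjusted p = 0.00570) and at 8.82 against 4.21 CPM (1.07, adjusted p = 0.0340). They were 2 of 11 genes called in the list of IGF binding and release. Cd44, a hyaluronan receptor and 1 of 6 client mRNAs of the IGF2BP proteins, was at 643.1 against 392.9 CPM (0.75, adjusted p = 0.0327).

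The genes lower with aFGF, as Hmga2 was, belong to other lists. Plag1, a zinc finger factor that activates Igf2, was at 1.33 against 2.22 CPM (-0.73, edgeR adjusted p = 0.00941), and Mdk, the growth factor midkine, was at 8.18 against 15.7 CPM (-0.96, adjusted p = 0.0357). These were 2 of 8 other oncofetal genes. Irs1, the adaptor of the IGF1 receptor and 1 of 7 receptors and adaptors, was at 8.64 against 14.9 CPM (-0.76, adjusted p = 0.0479). When single libraries were left out, between 2 (without 8.4/aFGF 1) and 7 (without 6.4/aFGF 2) of the list genes were called, and without the 3 libraries that stood apart 3 were. The call of Irs1 was lost in 16 of 18 such fits, that of Pappa2 in 12, of Cd44 in 10 and of Mdk in 9.

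**Figure D5:**
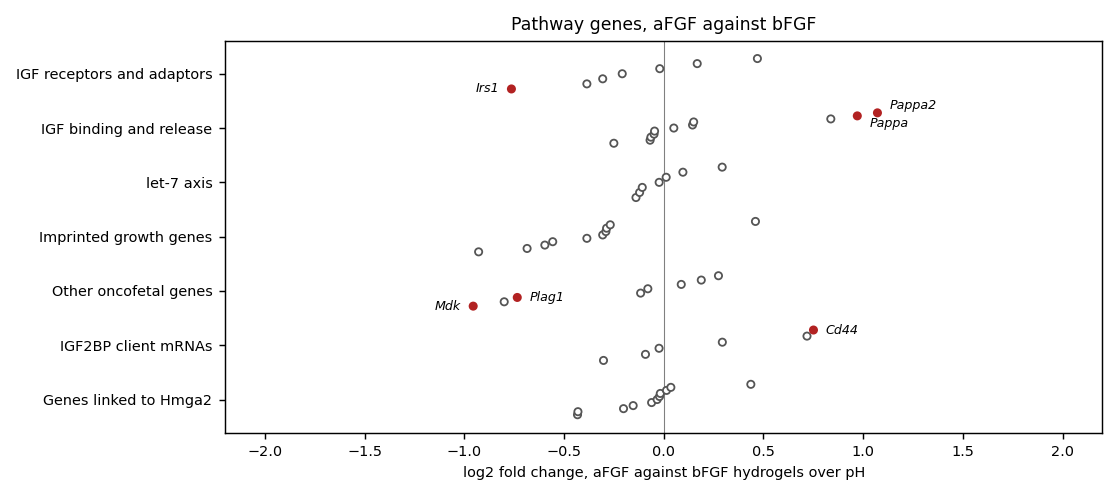
Log2 fold change, aFGF against bFGF hydrogels over pH, of the 58 tested genes of 7 lists, by list, with genes on 2 lists drawn in both. Red named points are the 6 genes called by edgeR (adjusted p under 0.05 and beyond 0.58), 3 on each side, and 9 of the 10 imprinted growth genes lie left of 0 with none called.

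Of the let-7 axis 0 of 7 genes were called, with Tut7 (0.29, edgeR adjusted p = 0.0943), Drosha (-0.12, adjusted p = 0.148) and Dgcr8 (-0.11, adjusted p = 0.334) at the smallest p. Of the imprinted growth genes 0 of 10 were called, although 9 had a negative difference and the list's median was -0.35, with Grb10 (-0.39, adjusted p = 0.0649), Mest (-0.60, adjusted p = 0.110) and Dlk1 (-0.93, adjusted p = 0.120) at the smallest p. Of 11 genes linked to Hmga2, 0 were called, and E2f1, a cell cycle factor, passed the adjusted p alone (-0.43, adjusted p = 0.0477), followed by Twist2 (0.44, adjusted p = 0.129) and Snai2 (-0.43, adjusted p = 0.133). At an unadjusted p under 0.05 there were 23 of the 58 genes, beside 29.9% of all genes. DESeq2 called 9 of the genes, the 6 above and Myc (0.71, DESeq2 adjusted p = 0.0189), Igfbp2 (0.83, adjusted p = 0.0482) and Prtg (-0.81, adjusted p = 0.0337).

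Against control, edgeR called 0 of the 58 genes, and 14 had an unadjusted p under 0.05, beside 16.7% of all genes. The smallest adjusted p were those of Igfbp5 (195.1 CPM in the hydrogels, 467.1 in control, log2 difference -1.28, adjusted p = 0.0612), Irs1 (11.8 and 33.0 CPM, -1.59, adjusted p = 0.0849), Twist1 (39.3 and 61.4 CPM, -0.66, adjusted p = 0.101) and Igfbp3 (172.1 and 97.6 CPM, 0.80, adjusted p = 0.117). DESeq2 called these 4. Without control replicate 2, edgeR called 14 of the 58 genes and 1189 genes in all, so this count rests on that library. In the pH comparisons and the interaction 0 of the 58 genes were called by edgeR, with 6, 1 and 1 at an unadjusted p under 0.05.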

How the data were processed

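Day 4 wound RNA was sequenced from poly(A) libraries made with a stranded kit, 3 libraries in each of 7 groups, grouped by the labels. The authors deposited a file of whole-number read counts for each library, without normalization. A second file of FPKM values, also deposited by the authors, was found to be those counts scaled by gene length and library total. The submitters' processing notes name the build GRCm39. The aligner, the counting tool and the annotation are not given in the sources used here. A RefSeq table of GRCm38.p6 held 18662 of the 18806 symbols and was used for names only, so no coordinates or sequences are printed. A gene with 0 counts may still be present at up to 3 counts of a library's total, for counting error only.

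The counts were fitted with edgeR 4.0.16 under R 4.3.3 (TMM, default filter by group, quasi-likelihood test, 1 mean per group, Benjamini-Hochberg adjustment over all genes tested). A prior count of 2 was used for the log2 CPM values and not in the fit. Hydrogels against control used 21 libraries and the other comparisons used 18. Calls needed a log2 fold change of more than 0.58 in size together with an adjusted p under 0.05. Replicates of a group differed by more than counting noise, and p-values measure the spread between these libraries. The replicate numbers were given per group, and same-numbered libraries were hardly more alike than others, as described in the closing section. On simulated counts for aFGF against bFGF over 15696 genes, 71.6%, 86.6% and 97% of genes changed 2-, 4- and 8-fold were recovered, with 6 false calls.

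The members, the pathway lists and the marker lists were chosen with earlier results of these data known. The text names the 7 members, the 10 genes most like Hmga2 and 5 each most like Igf1 and Igf2, and of each pathway list the called genes or else the 3 with the smallest p. Against control only the 4 list genes with the smallest adjusted p are named, and in the pH comparisons none. Marker genes of the 3 libraries that stood apart, the copy Hmga1b and genes called by DESeq2 alone fall outside that rule and were named after their values were seen.

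Alternatives were RLE size factors, no filter on low counts, the replicate number as a block, all 21 libraries in the fit, no fold threshold, DESeq2 1.42.0, limma 3.58.1 on log2(FPKM + 1) for genes averaging 1 FPKM or more, leaving out each library, and leaving out the 3 that stood apart. Exact permutation within pH, the sum of Hmga1 and Hmga1b, the relations with marker lists, the ranges of the muscle precursor sum and the counts of list genes under each alternative were added once the values were known.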

Additional observations from a re-analysis of the deposited data

Results flagged for a closer look

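The growth factors were compared with the same control wounds, so the difference between them is a difference between effects against that control, and it was tested among the hydrogels for each of the 7 genes. It differed from 0 at an edgeR adjusted p under 0.05 for Hmga2 (-0.85, aFGF lower) and for Hmga1 (0.41, aFGF higher), the latter under the fold threshold. No group had more than 3 libraries, so no single library was tested as standing apart within a group.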

How the results depend on the processing

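The call of Hmga2 between the growth factors was kept in 26 of 26 alternatives, the 18 that left out 1 library among them. The 26 include the exact permutation within pH, which was counted by its unadjusted p alone, without a fold threshold. Hmga1 had an adjusted p under 0.05 in 17 of 26 and was called in 0. Its 26 leave out that permutation and include the sum with Hmga1b. Of 1945 log2 differences recomputed under alternatives, 72 changed sign at no tolerance, 22 of them against control, and all were values of the 7 genes without a call. List genes were recomputed only against control and between the growth factors, and only if called or among the 3 smallest p of a list. That none of them changed sign follows in part from this choice and is not read as a result. The causes of the changes below were not tested. Against control the 1 called gene was Hmga2, which was chosen on that contrast, so the count is no support for it. This count became 2 with the replicate block (1 higher, 1 lower), 2 without a fold threshold, 0 without the 3 libraries that stood apart and 171 with DESeq2 (66 higher, 105 lower). It lay between 0 and 1189 when single libraries were left out, with 1189 without control replicate 2. List genes called against control went from 0 to 4 with DESeq2 and lay between 0 and 14 when single libraries were left out. Between the growth factors, 592 calls became 250 with limma (126 higher, 124 lower) and 2038 without a fold threshold, and lay between 339 (without 6.4/bFGF 1) and 818 (without 7.4/aFGF 3) when single libraries were left out. The 6 list genes called became 2 with the replicate block, 3 without the 3 libraries and 2 with limma, and lay between 2 and 7 when single libraries were left out. DESeq2 called 14 genes (3 higher, 11 lower) for pH 6.4 against 7.4, 9 (1 and 8) for pH 8.4 against 7.4 and 4 (1 and 3) for the interaction, where edgeR called 0. Leaving out single libraries gave 0 to 1 for pH 6.4 against 7.4.

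The values that changed direction had no call in the comparisons among hydrogels, and no test against control. Against control, Hmga1 was at -0.0097 and at 0.00047, 0.0094 and 0.00056 with RLE size factors, without the 3 libraries and with DESeq2, Igf2bp2 was at -0.011 and at 0.0066 and 0.0035 with the block and with limma, and Igf2bp1 was at 0.081 and at -0.028 without the 3 libraries. Hmga2 was at 1.03 with limma, beside 1.95. Without the 3 libraries that stood apart, Igf2 was at -0.14 between the growth factors, Hmga2 and Igf1 at -0.023 and -0.031 for pH 6.4 against 7.4, and Igf1 at -0.045 for pH 8.4 against 7.4. With limma, Hmga2 was at -0.036 for pH 6.4 against 7.4. When single libraries were left out, Igf2 lay between -0.018 and 0.44 for the growth factors and against control Igf2bp1 lay between -0.27 and 0.85, Hmga1 between -0.11 and 0.15 and Igf2bp2 between -0.22 and 0.20. For pH 6.4 against 7.4 the ranges were -0.20 to 0.047 for Hmga1, -0.062 to 0.19 for Hmga2, -0.26 to 0.33 for Igf2bp1, -0.022 to 0.16 for Igf2bp2, -0.34 to 0.069 for Igf2bp3 and -0.16 to 0.15 for Igf1. For pH 8.4 against 7.4 they were -0.20 to 0.029 for Hmga1, -0.19 to 0.037 for Hmga2, -0.11 to 0.29 for Igf2bp1 and -0.055 to 0.14 for Igf1. For the interaction they were -0.10 to 0.94 for Igf2bp1, -0.27 to 0.086 for Igf2bp2 and -1.15 to 0.0041 for Igf2.

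Libraries with the same replicate number were hardly more alike than others. The labels do not say whether the numbers pair libraries across groups, and this comparison cannot show that they do not. The correlation of deviations between same-numbered libraries was -0.64 to 0.42 over 63 pairs (median 0.0094), beside a median of -0.0086 over 126 other pairs, and 5 of 21 libraries matched their own number best. With the replicate block, Hmga2 was at -0.87 between the growth factors (edgeR adjusted p = 0.00975), and the block changed no call of the 7 genes. Depth limits Igf2bp1 and Igf2bp3, and the 3 libraries per group limit the interaction, for which 19.4% of genes changed 2-fold were recovered in simulated counts over 15696 genes.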
